A study of Mus musculus with 32 samples.

Results

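The 30 genes described here encode enzymes and regulators of cholesterol and fatty acid synthesis. They were chosen by name, as a list of known pathway members, and each symbol was looked up in the deposited table of gene counts. All 30 had a row among the 51826 genes, all passed the filter on low counts that left 18892 genes, and all reached a mean of at least 1 FPKM (fragments per kilobase of gene, scaled to the fragments a library had in genes) in every comparison. By role they fall into 8 genes of the mevalonate pathway and its prenyl products, 11 of the squalene and sterol ring steps, 5 regulators or carriers of sterols and 6 of fatty acid synthesis.

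RNA of mouse embryonic stem cells (ESCs) was measured in 32 libraries of 11 groups, to follow how cells leave the naive state when inhibitors are withdrawn and how loss of 3 transcription factors changes this. Every line derives from RGd2, which carries a *Rex1::GFPd2* reporter of the naive state, so reporter-carrying RGd2 cells are the control and no reporter-free line was included. RGd2 was sampled in 2i (the MEK inhibitor PD0325901 with the GSK3 inhibitor CHIRON, in serum-free N2B27 medium), in 2i at passage 5 (2i-p5), in N2B27 alone for 16 h (N16h) or 72 h (N72h), and in CHIRON alone at passage 2 (CHp2). Rbpj-KO cells were sampled in 2i and at N16h, and so were Etv5-KO cells. Cells lacking *Etv5* and *Rbpj* (ER-dKO) were kept in CHIRON to passage 5 (CHp5), and cells lacking *Etv5*, *Rbpj* and *Tcf3* (ETR-tKO, gene symbol *Tcf7l1*) were kept in N2B27 to passage 5 (Np5). Before sampling, cells of the 2i and N16h groups had been expanded in CHIRON with LIF and then moved to 2i. For 2i-p5, N72h, CHp2, CHp5 and Np5 this switch was not recorded, but the methods describe CHIRON with LIF as the routine culture of every line. By the labels, each group had 3 libraries, except Etv5-KO N16h with 2. The methods of the study instead name RGd2 N16h as the group short of a library, and the labels were followed. Every knockout library came from a differently labelled clonal line within its group, and each RGd2 group held 2 libraries of the parental line and 1 of a clone derived from it. Of the ETR-tKO lines, (Tc1)ERc2 and (Tc1)ERc10 share Tc1 in their labels and (ETc1)Rc53 does not, so these lines may not be independent in origin.

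Cholesterol is built from acetyl-CoA through mevalonate and isoprenoid units to squalene, which is closed into a sterol ring and then trimmed and reduced. The transcription factors SREBP1 and SREBP2, encoded by *Srebf1* and *Srebf2*, switch on most genes of the route when membrane sterol falls. SCAP escorts them from the endoplasmic reticulum to be cut and INSIG1 holds them back, while SREBP1 is also known for driving fatty acid synthesis. Promoters of SREBP targets often carry a sterol regulatory element beside CCAAT boxes, the sites bound by the co-factor NF-Y.

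Libraries held 5986857 to 71439411 gene counts (median 29940141), and spike-in RNAs of known amount made up 0.9909% to 1.5207% of all counts. Counts were scaled by the spike-ins, and the values below called normalised counts are on that scale. A call required an adjusted p under 0.05 by edgeR's quasi-likelihood test over all 18892 genes and a mean of at least 1 FPKM in either group. The share of all genes called in the same direction on this scale is given as the background beside each main count of members. No such share was computed for counts under other scalings, models or left-out libraries, so those counts have no background here. RGd2 2i was the least even group on the spike-in scale, with total normalised gene counts of 0.94 to 1.29 times the median library. The total count of members called in each comparison with it is therefore also given with scaling by TMM (trimmed mean of M values, computed from the genes themselves). Fold changes of single genes, and counts over part of the members or over other genes, are on the spike-in scale unless TMM is named. *Etv5* was at 9.76 to 30.7 FPKM in libraries labelled as lacking it and 88.5 to 156 FPKM in the others. *Rbpj* was at 2.72 to 8.51 FPKM in all but 1 of the libraries labelled as lacking it, against 9.80 to 12.9 FPKM in RGd2 outside N16h and 39.9 to 40.9 FPKM in RGd2 N16h. In the library labelled ER-dKO clone ERc9 *Rbpj* was at 9.88 FPKM, within the RGd2 range. The counts of members called in the ER-dKO comparisons are therefore also given without it. Other ER-dKO values below include it. *Tcf7l1* was at 0.29 to 1.10 FPKM in ETR-tKO and 2.06 to 13.9 FPKM elsewhere. These rows count reads over the whole gene, including any left outside an edited part. The summed level of 8 pluripotency markers was lowest at N72h (460.5 to 482 FPKM) and reached 1521 FPKM elsewhere, with no marker at 0.

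RefSeq promoter sequences (build GRCm38.p6, from 250 bases before to 50 bases after each start) were searched on both strands for TCACNCCAC, a sterol regulatory element type of motif, and for CCAAT. A promoter was at hand for 24 members. A CCAAT box lay in the promoters of 20 of the 24 (83.3%), against 41.1% of all 27025 genes. The sterol motif lay in 1 of the 24, *Hmgcs1*, against 1.44% of all genes. A match is only a run of letters, and its absence says nothing of a site written otherwise. Shown are 180 bases, from 200 to 21 bases upstream of the start, for the member that held the sterol motif (*Hmgcs1*) and the 3 members whose level ranged most widely over the groups (*Lss*, *Ebp* and *Mvd*). Capitals mark CCAAT on either strand (read as ATTGG on the other) and, in *Hmgcs1*, the sterol motif. The stretches are chr13:119690151-119690330 on the plus strand, chr8:122443443-122443622 on the minus strand, chr10:76531405-76531584 on the plus strand and chrX:8193533-8193712 on the minus strand.
Hmgcs1: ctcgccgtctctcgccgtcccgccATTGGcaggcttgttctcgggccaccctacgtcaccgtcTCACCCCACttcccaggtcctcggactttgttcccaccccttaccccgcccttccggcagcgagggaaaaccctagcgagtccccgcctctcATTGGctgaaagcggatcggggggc
Mvd: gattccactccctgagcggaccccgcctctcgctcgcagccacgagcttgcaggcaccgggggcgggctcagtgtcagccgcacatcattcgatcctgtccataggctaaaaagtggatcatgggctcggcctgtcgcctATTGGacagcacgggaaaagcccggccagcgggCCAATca
Lss: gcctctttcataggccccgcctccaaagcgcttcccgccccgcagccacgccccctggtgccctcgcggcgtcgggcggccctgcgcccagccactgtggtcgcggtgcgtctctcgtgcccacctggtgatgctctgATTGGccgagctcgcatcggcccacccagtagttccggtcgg
Ebp: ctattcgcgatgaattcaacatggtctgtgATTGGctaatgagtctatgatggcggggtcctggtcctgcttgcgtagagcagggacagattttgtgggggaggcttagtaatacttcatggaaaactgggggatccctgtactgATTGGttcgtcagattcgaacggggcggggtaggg

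The sterol motif of *Hmgcs1* starts 137 bases upstream of its start, between CCAAT boxes 176 and 45 bases upstream, with others outside the stretch shown. *Mvd* carries CCAAT boxes 60 and 27 bases upstream and *Lss* carries one 62 bases upstream. *Ebp*, whose transcript level went the other way, also carries CCAAT boxes, 170 and 55 bases upstream.

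Most members shared one profile over the 11 groups, highest in RGd2 cells that had left the naive state. The group mean was highest in N72h or CHp2 for 22 of the 30 members and lowest in a knockout group for 22 of the 30, of which 10 were lowest in Etv5-KO 2i and 10 in ER-dKO CHp5. These counts, and that of correlated members below, were not computed for all genes. They have no background here, so the profile cannot be called particular to the members. *Lss*, the enzyme that closes the sterol ring, had the widest range, from 6.24 FPKM in Etv5-KO 2i to 32.9 FPKM in N72h (5.27 times), and *Ebp* the next widest (4.69 times). *Mvd*, which makes isopentenyl pyrophosphate, spanned 22.6 to 95.2 FPKM (4.21 times). Across the 11 group means, 19 members had a Pearson r of at least 0.7 with the mean of the other 29, which is given as a description because the groups share RGd2 origins and all members share each library. The closest were *Msmo1* (r = 0.973), a demethylase of sterols, *Cyp51* (0.955), which removes the 14-methyl group of lanosterol, and *Lss* (0.944). Those with r below 0 were *Ebp* (-0.58), *Srebf1* (-0.662), *Scd1* (-0.313) and *Elovl6* (-0.295). *Fdps* had group means of only 0.74 to 2.59 FPKM, and reads shared with its near-identical copies may be missing from its row. *Acat2* and *Scd1* with *Scd2* also have close relatives, so their levels carry the same doubt.

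**Figure D1:**
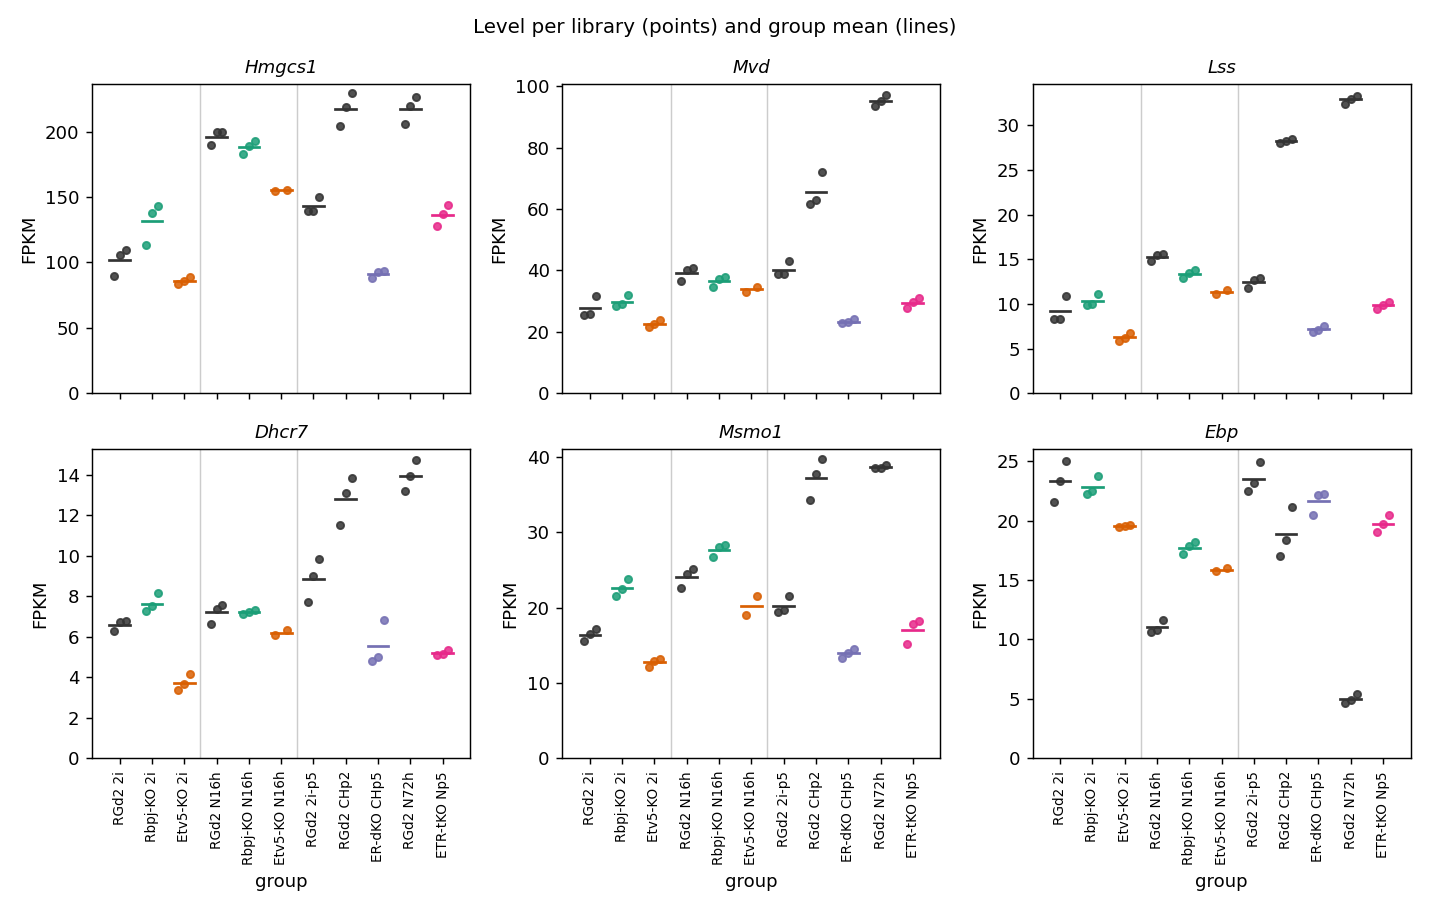
Level of 6 members in FPKM (vertical axes, from 0) in each library (points) with group means (lines) for the 11 groups, coloured by genotype (dark grey RGd2, green Rbpj-KO, orange Etv5-KO, purple ER-dKO, pink ETR-tKO). *Hmgcs1*, *Mvd*, *Lss*, *Dhcr7* and *Msmo1* are highest in RGd2 N72h or CHp2, whereas *Ebp* is lowest in RGd2 N72h, where its mean is 5.02 FPKM.

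RGd2 N72h was compared with 2i-p5 to describe late exit in plain N2B27. The labels give a time for N72h and a passage for 2i-p5. Culture history may therefore differ as well and cannot be told apart from exit. At 72 h, 21 of the 30 members rose and 4 fell, with 34.1% of all genes called higher and 22.8% lower. The median log2 fold change of the members was 0.54 and that of all genes 0.09. All 8 mevalonate members rose, 8 of 11 sterol ring members rose and 2 fell (*Ebp*, *Fdft1*), and of 6 fatty acid members 2 rose (*Acaca*, *Fasn*) and 1 fell (*Elovl6*). *Lss* stood at 7970, 8711 and 8386 normalised counts at N72h and at 2977, 3322 and 2879 in 2i-p5. Every N72h library was above every 2i-p5 library, at 2.73-fold (log2 1.45 ± 0.10 SE, adjusted p = 8.1e-16). *Pmvk*, the second kinase of the mevalonate pathway, was at 2352, 2712 and 2791 against 1035, 1119 and 1014 (log2 1.31 ± 0.14, adjusted p = 2.24e-10). *Mvd* was at 4004, 4325 and 4173 against 1731, 1720 and 1637 (log2 1.30 ± 0.10, adjusted p = 1.97e-14). The groups did not overlap for either gene, nor for any of the 25 members called. TMM gave 19 higher and 6 lower. With RGd2 2i as reference in place of 2i-p5, 21 of the 25 stayed called, 2 changed sign and 2 others were newly called. How many of all called genes were free of overlap was not computed, so counts without overlap, here and below, have no background. Elsewhere some called members did overlap. Free of overlap were 15 of 17 at RGd2 N16h, 5 of 9 in 2i-p5 against 2i and 16 of 19 in Etv5-KO 2i. In ER-dKO 14 of 15 were so against 2i-p5 and 26 of 27 against CHp2, and in ETR-tKO 22 of 23 against N72h.

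*Ebp*, the sterol isomerase that shifts the ring's double bond, went the opposite way. It was at 253.6, 312 and 254.4 normalised counts at N72h against 1160, 1377 and 1177 in 2i-p5, a 4.63-fold fall (log2 -2.21 ± 0.13, adjusted p = 1.55e-18). This was the largest change of any member in this comparison and lies just as far from 0 with TMM (log2 -2.33). The other members that fell were *Srebf1* (log2 -0.36), *Elovl6* (-0.33), which lengthens fatty acids, and *Fdft1* (-0.25), squalene synthase. Markers of other cells moved too, not all in one direction. The summed level of 5 fibroblast markers was 6.03 to 6.78 FPKM at N72h and 0.36 to 1.16 FPKM in 2i-p5. That of 5 endoderm markers was 1.90 to 7.49 FPKM and 0.30 to 0.74 FPKM. For 5 neural markers it was 33.1 to 42.8 FPKM and 19.8 to 22.3 FPKM, but 45.0 to 56.1 FPKM in RGd2 2i. The sum of 5 mesoderm markers was lower at N72h, at 0.14 to 0.42 FPKM against 5.53 to 7.36 FPKM in 2i-p5. Only 1 fibroblast, 2 endoderm, 1 neural and 1 mesoderm marker reached a mean of 1 FPKM in either group. The part of these markers in the results was not tested. In bulk RNA, fewer cells of a kind and less RNA in each cell cannot be told apart.

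RGd2 CHp2 against 2i-p5 compared culture without the MEK inhibitor, at passage 2, with culture in both inhibitors at passage 5, so that the inhibitor and the passage cannot be told apart. Here 19 members rose and 1 fell (*Acly*, which makes cytosolic acetyl-CoA, log2 -0.46), beside 27.3% and 13% of all genes, and the medians were 0.63 for the members and 0.12 for all genes. *Lss* was at 8099, 7434 and 7219 normalised counts against the 2i-p5 values above (2.48-fold, log2 1.31 ± 0.10, adjusted p = 6.75e-14). *Pmvk* was at 2561, 1961 and 2076 (log2 1.05 ± 0.15, adjusted p = 1.61e-07). The CHp2 libraries lay above all 2i-p5 libraries for both. *Msmo1* was at 6170, 5901 and 5035 against 2628, 3176 and 2718 (2.00-fold, adjusted p = 6.85e-10), and *Hsd17b7*, a ketone reductase of the sterol ring, at 786.6, 744 and 702 against 393.5, 415.6 and 330 (1.98-fold, adjusted p = 5.59e-07). All 20 members called had no overlap between groups, and TMM gave 19 higher and 3 lower. *Ebp* was not called here (log2 -0.20, adjusted p = 0.176) but was called lower with TMM (log2 -0.38). The fatty acid gene *Scd2*, a desaturase, was called higher in CHp2 (log2 0.76) and had log2 -0.25 without a call at N72h, each against the same 2i-p5 libraries. The summed level of 5 mesoderm markers was 68.1 to 72.1 FPKM in CHp2 and 5.53 to 7.36 FPKM in 2i-p5. Only 1 of the 5 reached a mean of 1 FPKM in either group (log2 3.74), so the sum says little of the others. The part of these markers in the results was not tested.

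**Figure D2:**
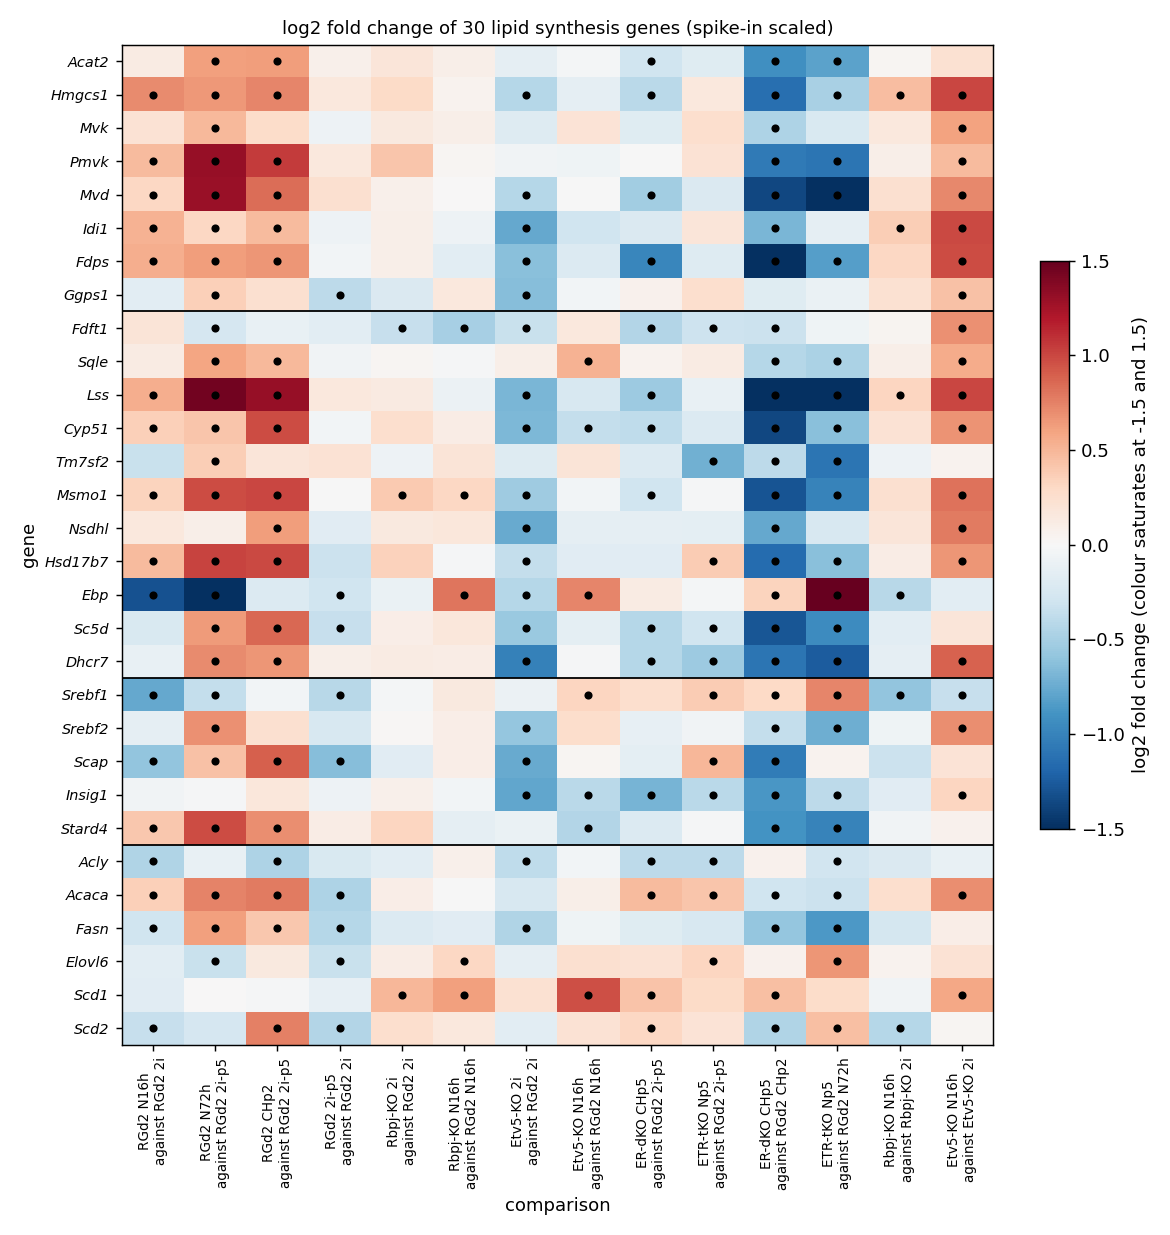
log2 fold change (colour, saturating at -1.5 and 1.5, spike-in scaling) of the 30 members (rows, in the order mevalonate, sterol ring, regulators and carriers, fatty acid) in 14 comparisons (columns), with a dot where a member was called. The columns for N72h and CHp2 against 2i-p5 are mostly red with 21 and 19 members called higher, and the columns for ER-dKO against CHp2 and ETR-tKO against N72h mostly blue with 24 and 19 called lower.

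The first 16 h were read from RGd2 N16h against 2i. Here 11 members rose and 6 fell, beside 8.95% and 41% of all genes, and the median was 0.12 for the members and -0.24 for all genes. Of the mevalonate members 5 of 8 rose and 0 fell by edgeR's quasi-likelihood test (0 also at an unadjusted p under 0.05), with log2 fold changes from -0.15 to 0.71. *Hmgcs1*, the enzyme that makes HMG-CoA, was at 15300, 15640 and 15160 normalised counts at N16h against 11290, 9708 and 6984 in 2i. The N16h libraries were all higher, and those of 2i were spread widely (1.63-fold, log2 0.71 ± 0.12, adjusted p = 5.44e-06). *Ebp* fell already at 16 h, to 614.6, 605.4 and 630.6 from 1775, 1367 and 1389 (2.48-fold lower, log2 -1.31 ± 0.11, adjusted p = 5.23e-13). Among the fatty acid members *Acaca*, acetyl-CoA carboxylase, rose (log2 0.36), while *Acly* (-0.45), *Scd2* (-0.34) and *Fasn* (-0.30), fatty acid synthase, fell. With TMM 16 members were called higher and 4 lower, and no called member changed direction. *Scd2* and *Fasn* were no longer called. With the clonal line as a replicate block 6 rose and 3 fell.

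RGd2 cells kept in 2i for 5 passages were compared with RGd2 2i, the short 2i culture. With spike-in scaling 0 members were called higher by edgeR's quasi-likelihood test, beside 2.96% of all genes, with 1 at an unadjusted p under 0.05 and 1 by DESeq2. The other direction held 9 members, beside 53.3% of all genes. The largest falls were in *Scap* (862, 959.3 and 799 against 1564, 1179 and 1337 normalised counts, log2 -0.64 ± 0.13, adjusted p = 0.000114), *Acaca* (3837, 3932 and 3820 against 6472, 5112 and 4130, log2 -0.46), *Scd2* (26960, 31810 and 26950 against 42900, 35940 and 37770, log2 -0.44) and *Fasn* (17560, 19510 and 16650 against 27850, 22060 and 22140, log2 -0.43). For these 4 genes the groups did not overlap. The count turned with the scaling: TMM called 15 members higher and 0 lower, the median of all genes moving from -0.37 to 0.01. Relative to all genes the members were higher under either scaling (median -0.10 with spike-ins). With the clonal line as a replicate block 1 member was called, and without the first parental RGd2 2i library 3 were lower and 2 higher.

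Loss of *Etv5* was first examined in 2i. In Etv5-KO 2i against RGd2 2i, 19 of the 30 members fell and 0 rose by edgeR's quasi-likelihood test, beside 33.5% of all genes lower and 6.41% higher. At an unadjusted p under 0.05 and by DESeq2, 0 were higher as well. The median was -0.42 for the members and -0.22 for all genes. The members that fell were 5 of 8 mevalonate, 9 of 11 sterol ring, 3 of 5 regulator and carrier and 2 of 6 fatty acid genes. *Dhcr7*, which makes the last reduction to cholesterol, fell most, to 639.2, 540.5 and 463.3 from 1296, 999.3 and 939.2 normalised counts (2.02-fold lower, log2 -1.01 ± 0.14, adjusted p = 3.5e-07). *Insig1* was at 3357, 3201 and 3014 against 5742, 5147 and 5479 (log2 -0.77 ± 0.11, adjusted p = 2.08e-07). Neither gene overlapped between groups. *Idi1*, the isopentenyl isomerase, was at 2213, 2285 and 2113 against 4322, 4060 and 2541 (log2 -0.76), and *Nsdhl*, a sterol dehydrogenase, at 960.5, 903.1 and 825.6 against 1771, 1474 and 1160 (log2 -0.76). With TMM 17 of the 19 remained lower, 0 changed sign, and 2 further members, *Sqle* and *Scd1*, were called higher.

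Etv5-KO was compared with RGd2 at N16h as well. Of the 30 members 4 were higher and 3 lower, beside 33.3% and 4.06% of all genes, with a median of -0.03 for the members and 0.23 for all genes. *Scd1*, the other desaturase, was at 16230 and 18440 normalised counts in the Etv5-KO libraries against 9361, 8672 and 8536 in RGd2 (1.96-fold, log2 0.97 ± 0.14, adjusted p = 4.54e-07). *Ebp* was at 985.7 and 1059 against 614.6, 605.4 and 630.6 (log2 0.73 ± 0.12, adjusted p = 5.77e-06). *Sqle*, squalene epoxidase, was at 7964 and 9360 against 6413, 6149 and 5492 (log2 0.52). *Stard4*, a carrier of cholesterol between membranes, was lower, at 873.4 and 929 against 1240, 1272 and 1131 (log2 -0.43). None of these 4 overlapped between groups. With TMM 3 members were higher and 16 lower, and the all-gene median moved to -0.01. Without clone c17 4 were higher and 0 lower, and without clone c1 2 were higher and 2 lower, the library left in each case being assumed to vary like the other groups.

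Within Etv5-KO cells, N16h against 2i gave 19 members higher and 1 lower (*Srebf1*), beside 35.3% and 10.5% of all genes, and TMM gave 17 higher and 3 lower. *Lss* went from 1909, 1693 and 1510 normalised counts to 3185 and 3620 (2.00-fold, SE 0.11 on the log2 scale, adjusted p = 8.43e-10) and *Hmgcs1* from 7156, 7313 and 6570 to 13430 and 14570 (2.00-fold, adjusted p = 3.03e-08). *Idi1* (log2 0.99) rose from 2213, 2285 and 2113 to 3956 and 4775, and *Fdps* (0.97), farnesyl pyrophosphate synthase, from 110.8, 115 and 107.8 to 207.9 and 227.5. Neither gene's groups overlapped. The difference between this response and that of RGd2 was called higher for 14 members and lower for 0 by edgeR's quasi-likelihood test, beside 45.4% and 0.621% of all genes, with 0 lower also at an unadjusted p under 0.05 and by DESeq2. With TMM the same difference was called higher for 2 members, *Ebp* and *Dhcr7*, and lower for 2, *Acat2* and *Stard4*. The median of the difference was 0.41 for the members and 0.45 for all genes with spike-ins, and -0.05 and -0.02 with TMM. The count of 14 did not stand out from the share of all genes. The count was 6 with the clonal line as a replicate block. Leaving out 1 library moved it between 5 (without the second Etv5-KO N16h library, clone c1) and 22 (without the clonal RGd2 2i library). It was 6 without the first parental RGd2 2i library, 9 without the clonal RGd2 N16h library and 9 without the Etv5-KO 2i library of clone c1. Where 1 Etv5-KO N16h library was left out, the other was assumed to vary like the remaining groups.

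Loss of *Rbpj* was examined in the same conditions. In Rbpj-KO 2i 2 members were higher and 1 lower than in RGd2 2i, beside 5.48% and 7.44% of all genes. Neither count stood out from these shares. *Scd1* was at 14130, 13410 and 14640 normalised counts against 10880, 9441 and 9444 (log2 0.50 ± 0.13, adjusted p = 0.00533) and *Msmo1* at 3706, 3836 and 3737 against 3150, 2781 and 2541 (log2 0.40). *Fdft1* was lower, at 4125, 3738 and 4113 against 5886, 4817 and 4323 (log2 -0.34). The libraries of the groups did not overlap for these genes. TMM called 9 higher and 1 lower, whereas a model of only the libraries compared called 0 of the 30 members by the same edgeR test, and the count without the first parental RGd2 2i library was 6 and without the Rbpj-KO clone c28 was 5.

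At N16h, Rbpj-KO cells had 4 members higher and 1 lower than RGd2, beside 20.4% and 3.83% of all genes. Neither count was above its share. *Ebp* was at 1013, 1057 and 1147 normalised counts against 614.6, 605.4 and 630.6 (1.74-fold, log2 0.80 ± 0.11, adjusted p = 5.11e-07). *Scd1* was at 12470, 13470 and 14700 against 9361, 8672 and 8536 (log2 0.61), *Elovl6* at 10320, 10930 and 11740 against 8909, 8715 and 8930 (log2 0.31), and *Fdft1* lower at 4220, 3746 and 4313 against 6000, 5934 and 5459 (log2 -0.50). None of the 5 members overlapped between groups. TMM gave 3 higher and 4 lower. The count fell to 3 without any 1 of 4 libraries, namely the second parental or the clonal RGd2 library, or Rbpj-KO clone c33 or c36. Within Rbpj-KO, N16h against 2i gave 3 higher and 3 lower, beside 12.4% and 16.4% of all genes, again neither above its share. *Srebf1* fell from 3769, 2932 and 2833 to 1931, 2119 and 2246 (log2 -0.59), *Scd2* from 50710, 43740 and 44760 to 32330, 33600 and 37150 (-0.43) and *Ebp* from 1454, 1438 and 1390 to 1013, 1057 and 1147 (-0.41). *Hmgcs1* rose from 10260, 11720 and 12510 to 15570, 15140 and 17040 (0.47). All 6 members called had groups that did not overlap. TMM gave 8 higher and 6 lower, and the clonal line as a replicate block 7 and 5.

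The difference in exit response between Rbpj-KO and RGd2 was called for 1 member, *Ebp*, beside 4.6% of all genes higher and 0.189% lower. With TMM 8 others were called lower. Its fall over 16 h was smaller in Rbpj-KO by 0.90 ± 0.16 on the log2 scale (adjusted p = 0.000206), or 0.68 with TMM. *Ebp* was also the member with the largest difference in Etv5-KO (1.16 ± 0.16, adjusted p = 5.52e-07, 0.69 with TMM). Both differences share the RGd2 libraries. Without the clonal RGd2 2i library the Rbpj-KO count was 2.

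The RGd2 culture in the same medium was CHp2 for ER-dKO CHp5 and N72h for ETR-tKO Np5. Passage number or time differed along with genotype and cannot be told apart from it. In ER-dKO CHp5 against RGd2 CHp2, 24 members were lower and 3 higher, beside 21.9% and 29% of all genes. The median was -0.73 for the members and 0.09 for all genes, and TMM gave 25 lower and 3 higher. *Lss* was at 2219, 1972 and 2107 normalised counts in ER-dKO against 8099, 7434 and 7219 in CHp2, 3.61-fold lower (log2 -1.85 ± 0.10, adjusted p = 5.36e-19). *Fdps* was at 78.6, 89.6 and 83.7 against 327.8, 256.3 and 219.2 (log2 -1.64), on few counts. *Mvd* was at 1223, 1123 and 1184 against 3565, 2776 and 2795 (log2 -1.37 ± 0.10, adjusted p = 5.87e-15) and *Cyp51* at 3299, 3172 and 3166 against 9368, 8197 and 7204 (log2 -1.36 ± 0.11, adjusted p = 6.79e-14). For all 4 the groups were apart. The higher members were *Scd1* (log2 0.45), *Ebp* (0.33) and *Srebf1* (0.29). Without the library of clone ERc9, 22 were lower and 2 higher.

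In ETR-tKO Np5 against RGd2 N72h, 19 members were lower and 4 higher, beside 24.8% and 36.8% of all genes, with medians of -0.48 and 0.11. TMM gave 24 lower and 4 higher. *Ebp* stood highest, at 1184, 1257 and 1206 normalised counts against 253.6, 312 and 254.4, a 4.53-fold difference (log2 2.18 ± 0.12, adjusted p = 7.7e-19). *Lss* was at 2556, 3044 and 2933 against 7970, 8711 and 8386 (2.94-fold lower, log2 -1.56 ± 0.10, adjusted p = 4.7e-17). *Mvd* was at 1444, 1524 and 1423 against 4004, 4325 and 4173 (log2 -1.51 ± 0.10, adjusted p = 7.99e-17). *Dhcr7* was at 743.3, 857.9 and 822.2 against 1703, 2015 and 2015 (log2 -1.25 ± 0.13, adjusted p = 7.75e-11). The groups did not overlap for these 4. Besides *Ebp*, *Srebf1* (log2 0.73), *Elovl6* (0.66) and *Scd2* (0.45) were higher. *Idi1* (log2 -0.13), *Nsdhl* (-0.23) and *Mvk* (-0.23), mevalonate kinase, were among the 7 members not called, and all 3 were called lower with TMM.

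Against RGd2 2i-p5, the naive reference, the double and triple mutants were closer, with culture and genotype changed together. ER-dKO CHp5 had 12 members lower and 3 higher, beside 8.88% and 35% of all genes, with medians of -0.19 and 0.21. *Fdps* was at 78.6, 89.6 and 83.7 normalised counts against 154.6, 171.2 and 169.6 (log2 -0.97), *Lss* at 2219, 1972 and 2107 against 2977, 3322 and 2879 (-0.55) and *Mvd* at 1223, 1123 and 1184 against 1731, 1720 and 1637 (-0.53). All 3 were lower in every ER-dKO library. *Acaca* (0.48), *Scd1* (0.43) and *Scd2* (0.31), all of fatty acid synthesis, were higher. With TMM 21 were lower and 1, *Acaca*, higher. Without clone ERc9, 9 were lower and 2 higher.

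ETR-tKO Np5 against 2i-p5 gave 6 members lower and 5 higher, beside 10% and 38% of all genes, with medians of -0.03 and 0.22. *Tm7sf2*, a sterol reductase, was at 231.1, 363.2 and 373.5 normalised counts against 489.6, 547.6 and 522.1 (log2 -0.73 ± 0.16, adjusted p = 0.000334). *Dhcr7* was at 743.3, 857.9 and 822.2 against 1134, 1367 and 1020 (-0.54), and *Acaca* was higher at 4503, 5616 and 5420 against 3837, 3932 and 3820 (0.42). No library of these 3 genes crossed into the other group. The split depended on the scaling, since TMM called 16 lower and 2 higher (*Scap*, *Acaca*). The summed level of the 5 neural markers was 58.4 to 61.6 FPKM in ETR-tKO and 19.8 to 22.3 FPKM in 2i-p5, and 45.0 to 56.1 FPKM in RGd2 2i. Only 2 of the 5 reached a mean of 1 FPKM in either group, with log2 1.75 and 2.14 against 2i-p5. The part of these markers in the results was not tested.

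The regulators did not move as one. *Srebf2* rose at N72h over 2i-p5, from 5109, 6145 and 5260 to 7978, 9472 and 9057 normalised counts (1.60-fold, log2 0.68 ± 0.12, adjusted p = 1.14e-05), with no overlap. In CHp2 it was at 7336, 6352 and 5824 (log2 0.24, adjusted p = 0.142). It was lower in Etv5-KO 2i (4878, 4267 and 3983 against 7337, 5347 and 6944, log2 -0.57, adjusted p = 0.00038), in ER-dKO than in CHp2 (5564, 4502 and 5182, log2 -0.36) and in ETR-tKO than in N72h (4439, 5887 and 5655, log2 -0.73).

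*Srebf1* took the other course. It fell at N16h from 3331, 2832 and 3580 to 2151, 1805 and 1718 (log2 -0.76 ± 0.11, adjusted p = 6.26e-07) and at N72h from 2364, 2525 and 2329 to 1771, 1860 and 1998 (log2 -0.36). It was higher in ETR-tKO than in N72h (2840, 3288 and 3263, log2 0.73, adjusted p = 4.96e-07). *Srebf1* in CHp2 was at 2290, 2436 and 2286, overlapping 2i-p5.

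*Scap* was lower at N16h than in RGd2 2i (1038, 811.5 and 875.8 against 1564, 1179 and 1337, log2 -0.59) and higher in CHp2 than in 2i-p5 (1594, 1706 and 1551 against 862, 959.3 and 799, log2 0.89 ± 0.12, adjusted p = 1.4e-07). *Scap* at N72h was at 1127, 1270 and 1157 (log2 0.44), but against RGd2 2i in place of 2i-p5 the difference was -0.21. It was lower in ER-dKO than in CHp2 (818.8, 773 and 763.2, log2 -1.05, adjusted p = 5.33e-10).

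*Insig1*, itself an SREBP target, was not called in any of the RGd2 comparisons on exit. It was at 5819, 5444 and 4501 at N16h, 4696, 5054 and 5566 at N72h, 6139, 5855 and 5451 in CHp2 and 4952, 5401 and 5102 in 2i-p5. It was lower in each comparison of a genotype lacking *Etv5* with RGd2, at 3714 and 4263 in Etv5-KO N16h (log2 -0.40), 3303, 3123 and 3086 in ER-dKO (log2 -0.70 against 2i-p5 and -0.87 against CHp2) and 3434, 4210 and 4086 in ETR-tKO (log2 -0.40 against 2i-p5 and -0.39 against N72h). These calls held with TMM. In the ER-dKO and ETR-tKO comparisons culture, passage or time differed along with genotype and cannot be told apart from it. In Rbpj-KO it was at 5905, 5294 and 6098 in 2i and 4507, 5141 and 5740 at N16h, overlapping RGd2 in each condition.

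**Figure D3:**
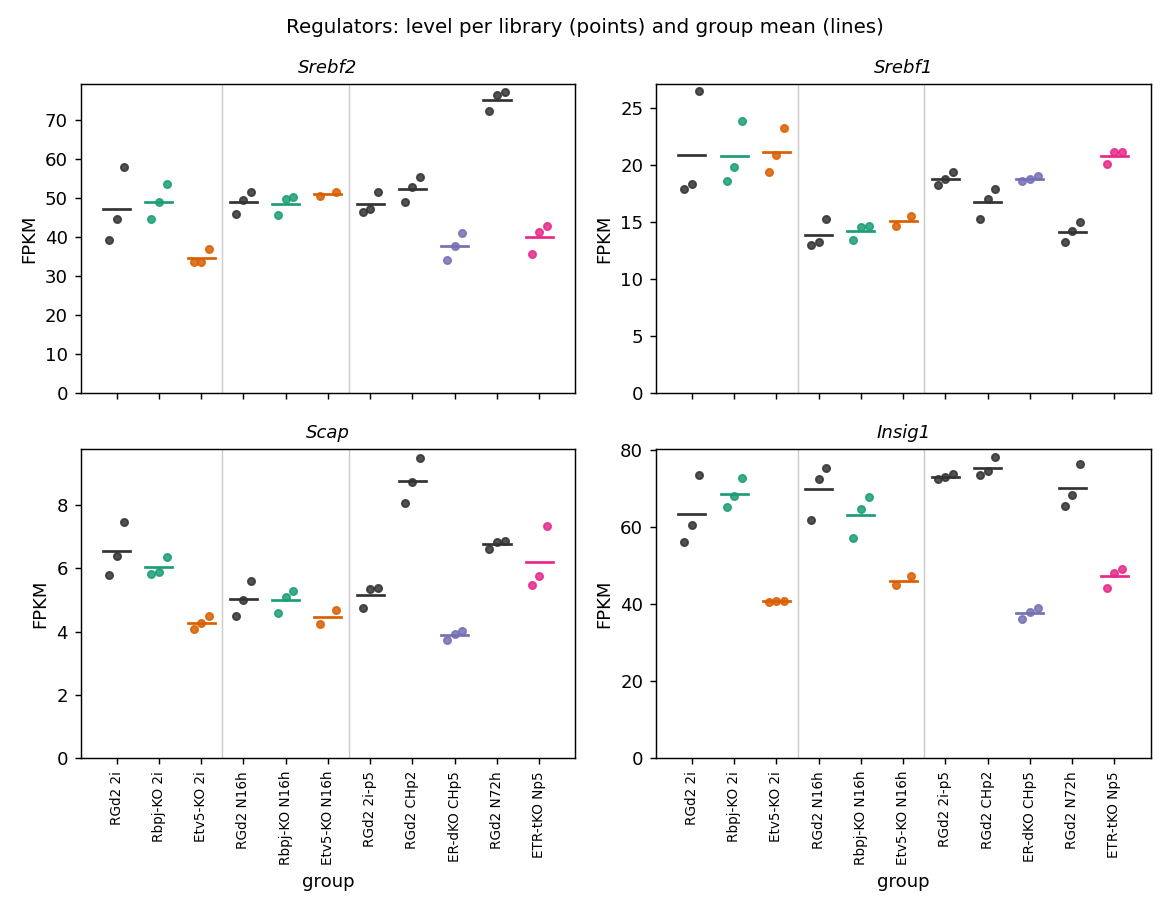
Level in FPKM (vertical axes, from 0) of *Srebf2*, *Srebf1*, *Scap* and *Insig1* in each library (points) with group means (lines) for the 11 groups, coloured by genotype as in the plot of 6 members. *Srebf2* is highest in RGd2 N72h with a mean of 75.1 FPKM, and *Insig1* is lowest in ER-dKO CHp5 with a mean of 37.8 FPKM.

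Other genes of lipid handling were taken from lists of known function. Of 22 further SREBP-linked genes, 12 were higher and 3 lower at N72h than in 2i-p5, beside 34.1% and 22.8% of all genes, among them *Mid1ip1*, an activator of acetyl-CoA carboxylase (log2 1.13), and *Acss2*, acetyl-CoA synthetase (-1.11). In CHp2 10 were higher and 1 lower, beside 27.3% and 13% of all genes. In ER-dKO against CHp2 10 were lower and 5 higher, beside 21.9% and 29%, and in ETR-tKO against N72h 9 were lower and 3 higher, beside 24.8% and 36.8%. *Aacs*, acetoacetyl-CoA synthetase, was lower in both (log2 -1.71 and -1.32). Of 13 genes of fatty acid oxidation, 10 were lower and 2 higher at N72h, beside the 22.8% and 34.1% above, led by *Cpt1a*, which loads fatty acids onto carnitine (log2 -3.37, adjusted p = 3.97e-22). *Cpt1a* was also lower at N16h (-2.51) and in CHp2 (-2.73), and it was higher in ER-dKO than in CHp2 (1.95) and in ETR-tKO than in N72h (1.81). Of 8 genes of sterol storage and efflux, 7 were lower and 0 higher at N16h by edgeR's quasi-likelihood test (0 also at an unadjusted p under 0.05), beside 41% and 8.95% of all genes, including *Npc2*, which carries cholesterol out of lysosomes (log2 -1.55). At N72h 5 of 8 from this list were lower and 1 higher, beside 22.8% and 34.1% of all genes. In CHp2 5 were lower and 1 higher, beside 13% and 27.3%. The 1 higher gene was *Soat1*, which esterifies cholesterol, both at N72h (1.49) and in CHp2 (1.65). *Soat1* was lower in ER-dKO than in CHp2 (-2.38), where the list had 3 lower and 3 higher, beside 21.9% and 29%. It was also lower in ETR-tKO than in N72h (-2.84), with 3 lower and 2 higher, beside 24.8% and 36.8%.

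**Figure D4:**
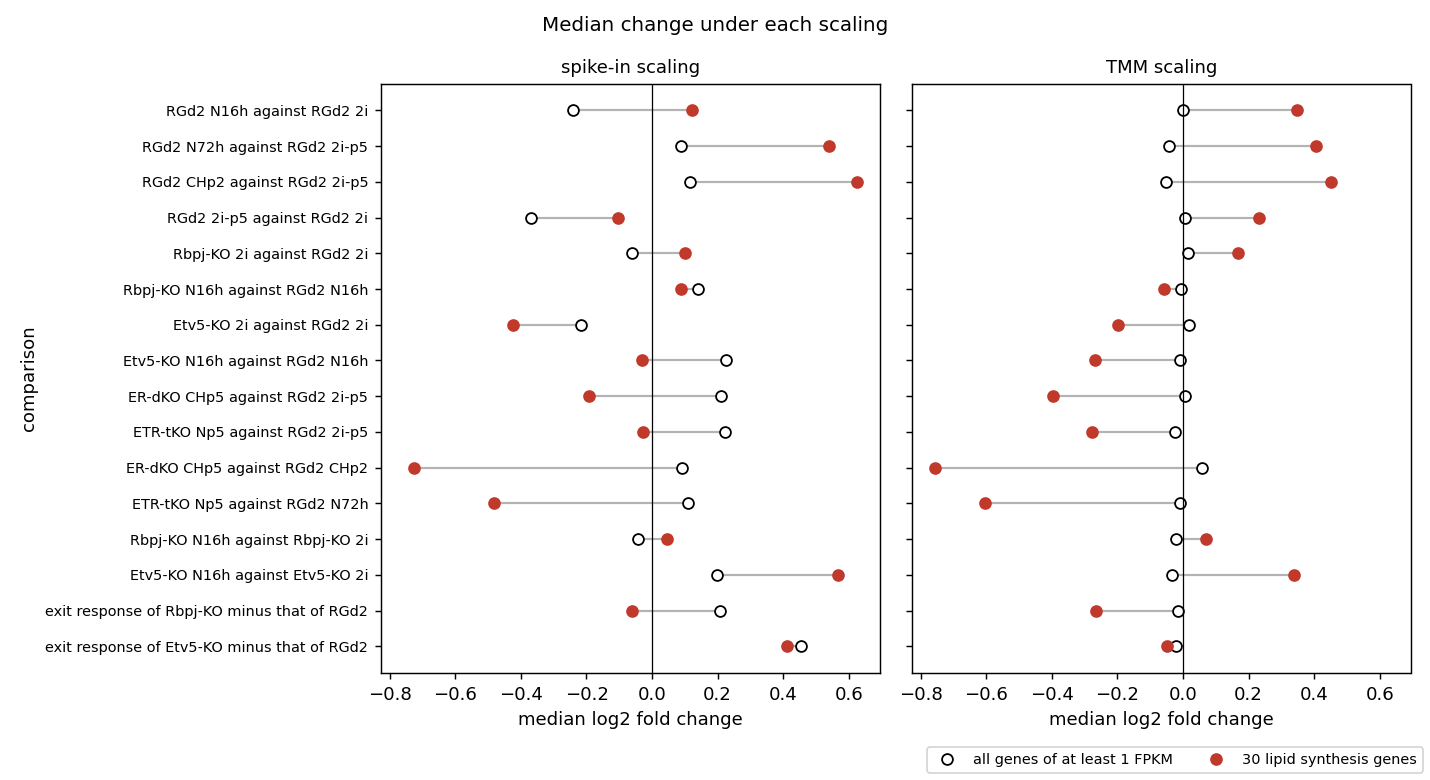
Median log2 fold change (horizontal axes) of the 30 members (filled red) and of all genes of at least 1 FPKM (open) in 14 comparisons and 2 differences of exit responses (rows), with spike-in scaling (left) and TMM (right). Under both scalings the members lie above all genes for N16h, N72h and CHp2 in RGd2 and below them in ER-dKO against CHp2 (members -0.73 and all genes 0.09 with spike-ins).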

How the data were processed

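Total RNA of 32 mouse ESC libraries was depleted of ribosomal RNA and sequenced with strand information. Per the labels and the methods, adapter trimming used Trim Galore, alignment to mm10 used TopHat2 and counting over Gencode genes used featureCounts. The deposited values are raw counts per gene and per spike-in, with gene lengths. FPKM was computed here from these counts and lengths. No column was left unassigned.

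Libraries were scaled by median-of-ratios factors of the 52 spike-ins detected in all of them. Genes were filtered with filterByExpr (18892 kept) and tested in one model of all 11 groups with edgeR 4.0.16 (quasi-likelihood, two-sided, Benjamini-Hochberg over all genes, adjusted p under 0.05, group mean FPKM no lower than 1 in one group or the other), in R 4.3.3, after checks on simulated data. Alternatives were TMM, DESeq2 1.42.0 and those in the closing section. The members, lists and tests were chosen with earlier results of these data known. The quasi-likelihood setting followed an earlier analysis of the data and was adopted after an older setting had been seen to call fewer genes. Values in every library are given for the 4 called members of largest change in each comparison and for 4 regulators, and from other lists genes among the 3 of largest change were named. Further members were named after their values were seen.

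Labels tie libraries of one line across conditions. Deviations from group means correlated at 0.091 to 0.192 for the same Rbpj-KO clone, 0.020 to 0.109 for the same Etv5-KO clone and 0.060 to 0.362 within RGd2 lines, and at -0.337 to 0.079 between lines. The labels do not say that RGd2 libraries of one line were separate cultures, so p-values measure the spread between these samples. No libraries were duplicates. Libraries held 5986857 to 71439411 counts. Promoter sequences are from RefSeq, GRCm38.p6. Some genes are not reported here.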

Additional observations from a re-analysis of the deposited data

Results flagged for a closer look

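The responses to 16 h without inhibitors differed between knockout and RGd2 cells for some members by edgeR's test of the difference itself, with adjusted p under 0.05. In Etv5-KO 14 of 30 members were called higher, beside 45.4% of all genes. In Rbpj-KO 1 was, beside 4.6% of all genes. Neither count stood out from its share. In Etv5-KO the median difference was 0.41 for the members and 0.45 for all genes. For *Ebp* the log2 difference was 0.8979 in Rbpj-KO and 1.155 in Etv5-KO, and both were called with TMM as well.

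In Etv5-KO the log2 difference was 0.9935 for *Dhcr7*, which was also called with TMM. It was 0.8365 for *Srebf2*, 0.7952 for *Scap*, 0.7431 for *Scd1*, 0.6276 for *Nsdhl* and 0.5959 for *Ggps1*. It was 0.4882 for *Msmo1*, 0.4858 for *Fdft1*, 0.4602 for *Idi1* and 0.4511 for *Lss*. The smallest were 0.4353 for *Sqle*, 0.4183 for *Mvd* and 0.417 for *Srebf1*. With TMM these 12 were not called and 4 of them (*Mvd*, *Idi1*, *Sqle* and *Srebf1*) changed sign. The median difference over all genes was 0.4534 with spike-ins, above the values of *Lss*, *Sqle*, *Mvd* and *Srebf1*. Groups held 2 or 3 libraries, too few for a test of single outlying libraries.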

How the results depend on the processing

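Of 259 alternative counts of called members, 207 lay within 1.5 times the reported count, among them all from DESeq2, from no FPKM minimum and from no low-count filter. Of 3092 alternative log2 values of called members, 2762 kept direction and call, 315 kept direction without a call and 15 changed direction, none of these being called. With RGd2 2i as reference these were *Scap* (-0.207) and *Ggps1* (-0.031) at N72h and *Fasn* (-0.022) in CHp2. In 2i-p5 against 2i they were *Sc5d*, *Elovl6* and *Ebp* with TMM (0.038, 0.018 and 0.069) and with median-of-ratios scaling on genes (0.023, 0.001 and 0.053). In the Etv5-KO exit difference they were *Idi1* (-0.012), *Sqle* (-0.010), *Mvd* (-0.042) and *Srebf1* (-0.011) with TMM, and *Idi1* (-0.003) and *Mvd* (-0.033) with median-of-ratios scaling. With a 1.5-fold minimum, 4 members were called at RGd2 N16h, 16 at N72h, 1 in 2i-p5 against 2i, 0 in Rbpj-KO 2i, 2 in Rbpj-KO N16h, 9 in Etv5-KO 2i, 2 in Etv5-KO N16h, 2 in ER-dKO and 1 in ETR-tKO against 2i-p5, 16 in ER-dKO against CHp2, 1 in Rbpj-KO exit and 7 in the Etv5-KO exit difference, because this alternative only adds a threshold. With TMM, 15 were called in 2i-p5 against 2i, 10 in Rbpj-KO 2i, 19 in Etv5-KO N16h, 18 in ETR-tKO against 2i-p5, 14 in Rbpj-KO exit, 9 in the Rbpj-KO and 4 in the Etv5-KO exit difference. Median-of-ratios scaling on genes gave 16, 10, 19, 18, 15, 9 and 4 in the same order. A model of only the libraries compared gave 9 at RGd2 N16h, 1 in 2i-p5 against 2i, 0 in Rbpj-KO 2i, 12 in Etv5-KO 2i, 12 in Etv5-KO N16h, 11 in Rbpj-KO exit and 6 in the Etv5-KO exit difference. With the clonal line as a replicate block, which also used only the libraries compared, 9 were called at RGd2 N16h, 1 in 2i-p5 against 2i, 12 in Rbpj-KO exit and 6 in the Etv5-KO exit difference, and no other count moved by more than 1.5 times. The causes were not tested.

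Leaving out 1 library at a time gave 5 to 11 members in 2i-p5 against 2i, 2 to 6 in Rbpj-KO 2i, 3 to 5 in Rbpj-KO N16h, 4 to 6 in Etv5-KO N16h, 1 to 2 in the Rbpj-KO and 5 to 22 in the Etv5-KO exit difference. Every other count stayed within 1.5 times. The older quasi-likelihood fit with estimated dispersions and a low-count filter without spike-in factors, both chosen after seeing the data, moved no count by more than 1.5 times (Etv5-KO exit difference 12 and 14). The shallowest library, the clonal RGd2 2i library at 5986857 counts, limits comparisons with RGd2 2i.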
